A study of Homo sapiens with 6 samples.

Results

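TGF-beta and BMP signalling is described here through 10 genes: the ligands TGFB1, TGFB2 and BMP4, the receptors TGFBR1 and TGFBR2, the intracellular inhibitor SMAD7, and the target genes TGFBI, ID1, ID2 and ID3. They were taken by gene symbol, as 10 of the 81496 symbols on the arrays, and their values played no part in the choice of probe set beyond its mean level. Where several probe sets, the groups of short probes that together measure a transcript, carried the symbol, the brightest on average over the 5 arrays compared was used. Of the 10 genes only SMAD7 had a second probe set.

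The arrays compared a fluvastatin-sensitive cell line with a resistant line selected from it, to ask which genes differ once resistance to this cholesterol-lowering statin has been acquired. MCF10.AT1 is a human breast epithelial line at a preneoplastic stage, an HRAS-transformed line of the MCF10A series, and its samples are labelled untreated. MCF10.AT1-R was selected from MCF10.AT1 in fluvastatin at doses raised from 1 to 20 µM. The base medium described for the cell lines held horse serum, epidermal growth factor, insulin and hydrocortisone. MCF10.AT1-R is 1 selected line, so a difference between the lines cannot be told apart from drift of this line in culture. Whether it was cloned, and whether fluvastatin was in the medium when RNA was taken, is not given in the sources used here. The labels give 3 replicates of each line, which the study calls biological, without saying how the cultures were kept apart. The p-values rest on the spread between these samples, which the main fit pooled over all probe sets tested.

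Ligands of the TGF-beta family are secreted as dimers, and TGF-beta itself leaves the cell in a latent complex that has to be opened outside it. The active ligand joins a type II and a type I receptor, both kinases, and the type I receptor phosphorylates SMAD proteins, which enter the nucleus with SMAD4. TGF-beta and activin act mainly through SMAD2 and SMAD3, and bone morphogenetic proteins (BMPs) through SMAD1, SMAD5 and SMAD9. In breast epithelium TGF-beta is known for arresting growth of normal cells and for promoting invasion in advanced tumours. The ID genes are known as direct targets of BMP signalling, and TGF-beta can raise or lower them depending on the cell.

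Expression was given as log2 values, so a difference of 1 is a factor of 2. The 5 arrays compared (A01 and A02 of MCF10.AT1, with B02, B03 and B04 of MCF10.AT1-R) correlated with each other at 0.967 to 0.977 over all transcript probe sets. A03, which the study removed, was read from its name as an MCF10.AT1 array. It correlated with the 5 arrays at only 0.779 to 0.795. Its hybridization controls, transcripts added to every sample alike, averaged 5.99 against 10.4 to 11.3. A03 was therefore left out of the comparison and its values are given apart. All 10 genes read lower on A03 than the mean of A01 and A02, by differences from -0.46 for SMAD7 to -5.74 for TGFBI. Of the defining markers of mammary basal epithelium, 7 of 7 were measured and 5 were higher in MCF10.AT1-R past an FDR of 5%. Their log2 values summed to 47.7 to 48.4 in MCF10.AT1 and to 60.5 to 61.3 in MCF10.AT1-R. All marker sums given here add log2 values, so they are not totals of expression and their ratios are not fold changes. The general epithelial markers summed to 32.2 in MCF10.AT1 and to 36.0 to 36.5 in MCF10.AT1-R. Among them CDH1 and the keratin KRT8 were higher by 1.30 and 1.11 past an FDR of 5%. The keratin KRT18 and EPCAM were higher by 0.85 and 0.78 without passing. Of 4 markers of luminal hormone receptor cells, 2 were tested and none passed. Their sum was 12.65 to 12.72 in MCF10.AT1 and 11.80 to 12.99 in MCF10.AT1-R. GATA3 and FOXA1 lay above the negative controls on all 5 arrays, the estrogen receptor gene ESR1 on 2 of them and the progesterone receptor gene PGR on none.

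In limma over 5 arrays, 0 of the 9 signalling genes that entered the test were past an FDR of 5%, against 1.2% of the 51457 probe sets tested. TGFB2 varied too little over the arrays to pass the filter, and is given from a fit without a filter. At an unadjusted p under 0.05 there were 2 of the 9, ID1 and ID3, against 8.26% of all probe sets tested. Their differences ran in opposite directions. ID1 was lower in MCF10.AT1-R by 1.03 on the log2 scale and ID3 was higher by 0.68. The lines were fully separated, with no overlap between their arrays, for 7 of the 10 genes. Over all transcript probe sets that share was 23.3%, and over those tested it was 26.7%, where 6 of the 9 tested genes were separated. These shares are not matched for expression level. Of the 10 genes, 9 lay above the negative controls on all 5 arrays, and many of the probe sets compared did not. TGFBR2, SMAD7, TGFBI and ID3 were higher on every MCF10.AT1-R array, and TGFB1, TGFB2 and ID1 were lower on every one. The median log2 difference (MCF10.AT1-R minus MCF10.AT1) of the 10 genes, the untested TGFB2 included, was 0.28, and the median of its size was 0.31. The corresponding values were -0.01 and 0.25 over all probe sets tested, and 0.01 and 0.18 over all transcript probe sets. The smallest difference that passed anywhere on the arrays was 1.07.

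**Figure D1:**
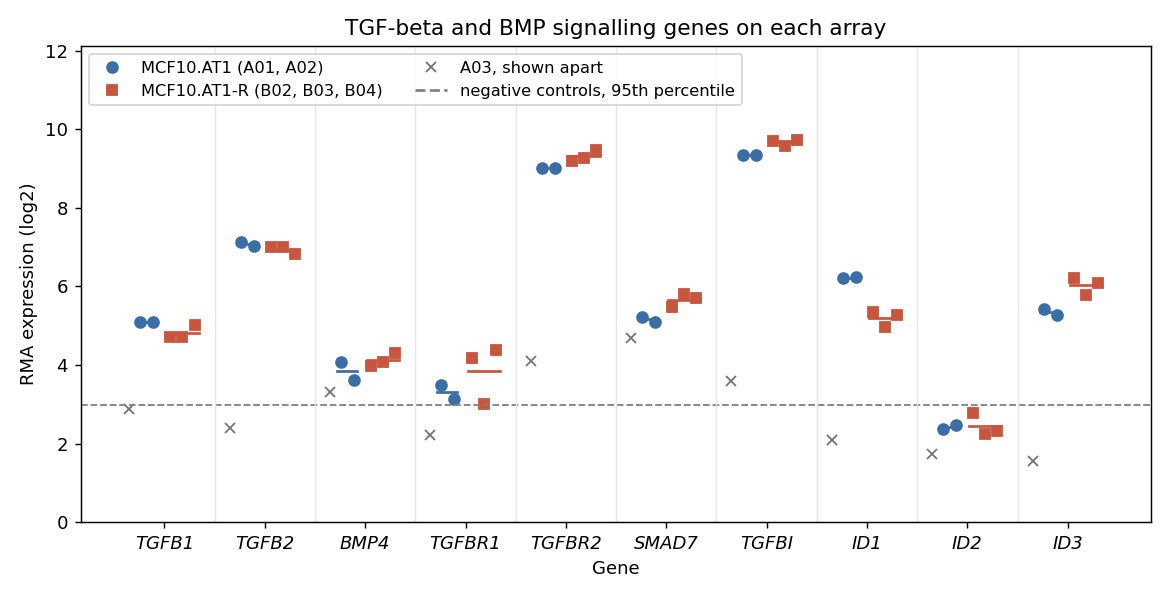
Log2 expression of the 10 genes on each array. Blue dots are the MCF10.AT1 arrays (A01, A02), red squares the MCF10.AT1-R arrays (B02, B03, B04), short lines are their means, crosses are A03, and the dashed line is the 95th percentile of the negative controls at 2.99. ID1 lies between 4.97 and 5.35 in MCF10.AT1-R, under both MCF10.AT1 arrays at 6.21 and 6.23, while ID3 lies between 5.79 and 6.22, above both at 5.28 and 5.42.

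ID1 and ID3 had the widest differences of the 10 genes, and ID2 the smallest. ID1, ID2 and ID3 encode proteins that bind the basic helix-loop-helix transcription factors and keep them from DNA, and they hold back differentiation in many tissues. ID1 (probe set TC2000007083.hg.1) read 6.21 and 6.23 on the MCF10.AT1 arrays A01 and A02. On the MCF10.AT1-R arrays B02, B03 and B04 it read 5.35, 4.97 and 5.27. All 3 resistant arrays were lower than both sensitive arrays, with a gap of 0.86 between the nearest ones. The means were 6.22 ± 0.02 (SD, n = 2) and 5.20 ± 0.20 (SD, n = 3), a level 2.04-fold higher in MCF10.AT1. The log2 difference of -1.03 (standard error 0.31, 95% confidence interval -1.64 to -0.42) was larger in size than that of 99.4% of all transcript probe sets, but its adjusted p was 0.0698 from limma with Benjamini-Hochberg adjustment.

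The call for ID1 differed between alternatives. After the filter on invariant probe sets limma used 1 common SD of 0.34 for every probe set, and the residual SD of ID1 itself was 0.16. With an SD that follows the expression level, the adjusted p of ID1 was 0.00117 from limma. It was 0.0348 from limma when all probe sets of a symbol were averaged, with 29924 units then tested. With the low-expression filter alone it was 0.148 from limma, and with no filter 0.205. Counting A03 as MCF10.AT1 turned the difference to 0.35 (adjusted p = 0.902 from limma), as ID1 read 2.08 there.

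ID3 (TC0100013293.hg.1) read 5.42 and 5.28 on A01 and A02. It read 6.22, 5.79 and 6.09 on B02, B03 and B04. The lines were separated by 0.37, with every MCF10.AT1-R array higher. The means of 5.35 ± 0.10 (SD, n = 2) and 6.04 ± 0.22 (SD, n = 3) correspond to a 1.61-fold higher level in MCF10.AT1-R. Its log2 difference of 0.68 (95% confidence interval 0.07 to 1.30) did not pass, with an adjusted p of 0.486 from limma, and no alternative brought it under 0.0819.

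The log2 differences of ID3 and ID1 thus lay 1.71 apart, a distance that was not tested. Against the MCF10.AT1 mean, ID1 was lower by -0.87, -1.25 and -0.96 on B02, B03 and B04, and ID3 was higher by 0.87, 0.44 and 0.74 on the same arrays. B03 was the lowest MCF10.AT1-R array for both genes. ID2 (TC0200006627.hg.1) read 2.38 and 2.46 on A01 and A02 and 2.79, 2.24 and 2.32 on B02, B03 and B04. These values lie within the negative controls, whose 95th percentile was 2.99, so ID2 was not detected in either line and its log2 difference of 0.03 rests on background.

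The stretches of 250 bases before the start sites of the ID genes are shown because the 3 genes differed in their readings, and because SMAD proteins are known to bind such promoters. They are from RefSeq on GRCh38.p14, in which all 10 genes were matched, and run in the direction of transcription: ID1 at chr20:31605039-31605288 on the plus strand, ID2 at chr2:8681806-8682055 on the plus strand and ID3 at chr1:23559502-23559751 on the minus strand. Capitals mark matches, on either strand, to the letters GGCGCC, which SMADs activated by BMP bind. They also mark CAGAC, the core of the SMAD binding element. The remaining letters searched were those of general promoter elements, CCAAT for the element of the same name and TATAA for the TATA box.
ID1: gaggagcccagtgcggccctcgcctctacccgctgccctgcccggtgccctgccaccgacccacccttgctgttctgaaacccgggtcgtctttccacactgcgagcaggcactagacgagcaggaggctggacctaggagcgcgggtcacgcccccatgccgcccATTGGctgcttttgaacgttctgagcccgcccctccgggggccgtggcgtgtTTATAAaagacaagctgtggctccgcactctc
ID2: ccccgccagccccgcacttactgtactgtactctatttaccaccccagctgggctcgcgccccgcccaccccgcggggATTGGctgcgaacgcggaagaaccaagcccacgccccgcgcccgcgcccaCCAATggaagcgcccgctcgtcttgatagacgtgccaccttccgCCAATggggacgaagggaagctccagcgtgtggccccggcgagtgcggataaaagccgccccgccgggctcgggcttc
ID3: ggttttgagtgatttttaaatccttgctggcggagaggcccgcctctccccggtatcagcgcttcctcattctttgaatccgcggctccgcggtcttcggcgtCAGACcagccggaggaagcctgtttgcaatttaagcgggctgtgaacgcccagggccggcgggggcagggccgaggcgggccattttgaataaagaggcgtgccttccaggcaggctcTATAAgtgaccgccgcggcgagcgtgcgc
The ID1 window held CCAAT once and the letters of the TATA box once. The ID2 window held CCAAT 3 times and none of the other letters. The ID3 window held CAGAC once and the letters of the TATA box once. GGCGCC was in none of the 3 windows, and no match overlapped one of another motif. Of 35116 promoter windows of this length, GGCGCC was in 16.4%. The corresponding share was 38.0% for CAGAC, and it was 32.0% for the CCAAT letters. The TATA box letters were in 18.9%. These letters are common, and the matches are a description of the windows. Sites further upstream than 250 bases could not be seen. The absence of GGCGCC here therefore does not show that an ID gene lacks such an element.

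TGFBI, SMAD7 and both receptors were higher in MCF10.AT1-R on most or all arrays, by less than the smallest difference that passed. TGFBI (TC0500008736.hg.1) encodes a secreted matrix protein named for its induction by TGF-beta. It read 9.33 and 9.35 on A01 and A02 and 9.71, 9.58 and 9.72 on B02, B03 and B04. The arrays of each line lay close together and the lines did not overlap, with a gap of 0.23. The log2 difference was 0.33 (95% confidence interval -0.28 to 0.94, adjusted p = 0.835 from limma), a level 1.26-fold higher in MCF10.AT1-R. With an SD that follows the expression level the standard error fell from 0.31 to 0.09 and the interval was 0.15 to 0.51, and TGFBI then passed (adjusted p = 0.0139 from limma).

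SMAD7 (TC1800008650.hg.1), the inhibitory SMAD that TGF-beta induces and that blocks its type I receptor, read 5.23 and 5.09 on A01 and A02. On B02, B03 and B04 it read 5.47, 5.80 and 5.72, all higher than in MCF10.AT1. Its log2 difference was 0.51 (95% confidence interval -0.11 to 1.12, adjusted p = 0.734 from limma). The second SMAD7 probe set, TC1800008651.hg.1, read 3.25 and 3.61 in MCF10.AT1 and 3.62, 3.16 and 3.09 in MCF10.AT1-R. The probe sets disagreed in direction, and their mean gave a difference of 0.18.

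TGFBR2 (TC0300006925.hg.1), the type II receptor that binds the ligand first, read 9.02 and 9.01 on A01 and A02. It read 9.19, 9.28 and 9.47 on B02, B03 and B04. Every MCF10.AT1-R array was higher, by a gap of 0.17, and the log2 difference was 0.30 (95% confidence interval -0.31 to 0.91, adjusted p = 0.839 from limma). With an SD that follows the expression level its interval was 0.10 to 0.49 (adjusted p = 0.0925 from limma). TGFBR1 (TC0900008202.hg.1), the type I receptor kinase, read 3.49 and 3.13 in MCF10.AT1 and 4.17, 3.00 and 4.39 in MCF10.AT1-R. B03 was under both sensitive arrays while B02 and B04 were above them, so the lines overlapped. The difference of 0.55 had a 95% confidence interval of -0.07 to 1.16 (adjusted p = 0.687 from limma), and the SD within MCF10.AT1-R was 0.75. Without B03 the difference was 0.97 and the lines no longer overlapped (adjusted p = 0.147 from limma), and without B04 it was 0.28.

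The 3 ligands differed between the lines by at most 0.28 in size. TGFB1 (TC1900010743.hg.1), the most widely expressed TGF-beta, read 5.09 and 5.10 on A01 and A02 and 4.70, 4.71 and 5.02 on B02, B03 and B04. All 3 resistant arrays were lower, B04 by a gap of only 0.07. The log2 difference was -0.28 (95% confidence interval -0.89 to 0.33, adjusted p = 0.840 from limma). TGFB2 (TC0100011621.hg.1), a ligand that needs the co-receptor TGFBR3 to bind its receptor well, read 7.12 and 7.02 in MCF10.AT1 and 6.99, 6.99 and 6.82 in MCF10.AT1-R. The gap between the lines was 0.03, and the difference of -0.13 (-0.08 without A01 or B04) had a 95% confidence interval of -0.56 to 0.29 (adjusted p = 0.929 from limma without a filter). BMP4 (TC1400009214.hg.1), a BMP that signals to the ID genes, read 4.09 and 3.61 in MCF10.AT1 and 3.99, 4.08 and 4.29 in MCF10.AT1-R. A01 lay among the resistant arrays, and the difference was 0.27 (95% confidence interval -0.34 to 0.88, adjusted p = 0.842 from limma). It was 0.51 without A01 and 0.03 without A02.

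**Figure D2:**
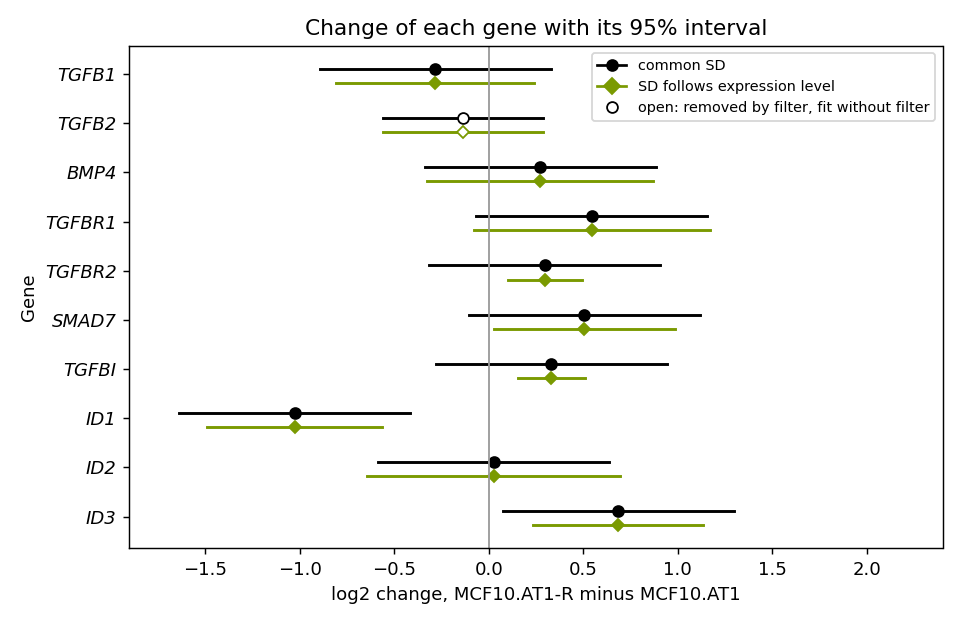
Log2 difference between the lines (MCF10.AT1-R minus MCF10.AT1) for each of the 10 genes, with 95% confidence intervals from limma over 5 arrays. Black intervals use the common SD of 0.34 and green ones an SD that follows the expression level. Open symbols are TGFB2, which the filter removed. Both of its intervals come from the same fit without a filter and use neither of these SDs. ID1 at -1.03 and ID3 at 0.68 have intervals clear of 0 under both models, and the green interval of TGFBI runs from 0.15 to 0.51.

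The other genes of the pathway were taken from 9 lists by role, with 122 distinct genes measured and 88 tested. Of these, 10 passed an FDR of 5%, 5 higher in MCF10.AT1-R, where 0.758% of all probe sets tested were, and 5 lower, where 0.447% were. At an unadjusted p under 0.05 there were 14 of the 88, against 8.26% of all probe sets tested. The lines were separated without overlap for 46 of the 122, against 23.3% of all transcript probe sets, a share again not matched for expression level. The median log2 difference of the 122 was 0.07. The genes that passed were a ligand subunit, proteins that hold or release latent TGF-beta, a secreted antagonist, an inhibitory SMAD and target genes. None of the 7 receptors and co-receptors or the 4 SMAD transducers tested passed. Of all probe sets tested 1.2% passed, so lists this small would commonly hold no call. The standard error was 0.31 for each, since the SD was common. The residual SDs of SMAD6, FST and TAGLN themselves were 0.69, 0.43 and 0.43, above the common 0.34. Those of the other genes that passed were below it. With no filter, where the own SD of each gene carries weight, only LTBP1, ITGB6, FST and TAGLN passed. The adjusted p from limma was then 0.00784 for FST, 0.0182 for TAGLN and 0.564 for SMAD6.

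**Figure D3:**
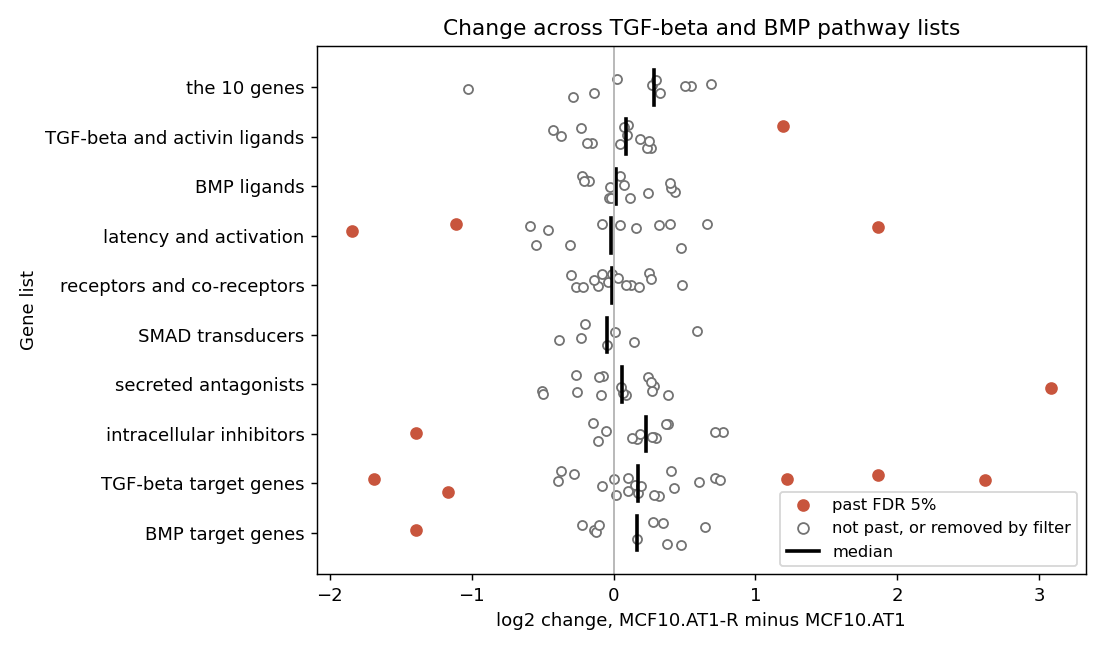
Log2 difference (MCF10.AT1-R minus MCF10.AT1) of every measured gene in the 9 pathway lists. Each point is a gene, filled where it passed an FDR of 5% in limma, and bars are list medians. FST at 3.08 and TAGLN at 2.62 are the highest points and LTBP1 at -1.84 is the lowest. BMP ligands, receptors and SMAD transducers, of which only 10, 7 and 4 were tested, hold no filled point.

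Among 14 TGF-beta and activin ligands, 9 were tested and 1 passed. INHBA, which encodes the subunit of activin A, rose from 6.29 and 6.02 on A01 and A02 to 7.37, 7.15 and 7.54 on B02, B03 and B04. The log2 difference was 1.20, a 2.29-fold higher level (adjusted p = 0.0149 from limma). Among 16 secreted antagonists, 12 were tested and 1 passed. FST, or follistatin, binds activin and keeps it from its receptors, and it rose more than any other gene of the lists. It read 2.78 and 3.74 in MCF10.AT1 and 6.57, 6.26 and 6.19 in MCF10.AT1-R, a difference of 3.08 (adjusted p = 1.13e-19 from limma). A01 lay within the negative controls for FST, and with values raised to their 95th percentile the difference was 2.97 (adjusted p = 0.0332 from limma).

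Latency and activation held 14 genes, of which 13 were tested, 1 rose and 2 fell. LTBP1, which ties latent TGF-beta to the matrix, fell from 8.10 and 8.26 on A01 and A02 to 6.30, 6.21 and 6.51 on B02, B03 and B04. This is a log2 difference of -1.84, or a 3.59-fold higher level in MCF10.AT1 (adjusted p = 1.42e-06 from limma). FBN1, a microfibril protein to which latent complexes bind, fell from 5.29 and 5.25 to 4.21, 3.88 and 4.39, a difference of -1.11 (adjusted p = 0.0335 from limma). ITGB6, a subunit of the epithelial integrin that frees TGF-beta from its latent complex and itself a TGF-beta target, rose from 5.80 and 5.69 to 7.61, 7.50 and 7.72. The difference was 1.86 (adjusted p = 1.03e-06 from limma). ITGB6 has 3 probe sets, and their mean gave 0.59 (adjusted p = 0.461 from limma). The median of the list was -0.02, as its genes lay on both sides of 0.

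Receptors and co-receptors numbered 15, with 7 tested and none past an FDR of 5%, and the widest difference among those above the negative controls was 0.48 for the BMP receptor ACVR1 (adjusted p = 0.758 from limma). Of 7 SMAD transducers 4 were tested and none passed, and SMAD2 differed by 0.58 (adjusted p = 0.643 from limma). The 14 BMP ligands, of which 10 were tested, gave no call and no gene whose arrays separated the lines. Of these ligands 7 lay within the negative controls on all 5 arrays, and GDF6 had the widest difference above the controls, at 0.11 (adjusted p = 0.947 from limma without a filter).

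Among 14 intracellular inhibitors, 12 were tested and 1 passed, SMAD6, which blocks BMP receptors and SMAD1 and is also a BMP target. SMAD6 read 3.74 and 2.29 in MCF10.AT1 and 1.26, 1.49 and 2.12 in MCF10.AT1-R, a difference of -1.39 (adjusted p = 0.00146 from limma). Only A01 lay above the negative controls. With values raised to their 95th percentile the difference was -0.37 (adjusted p = 0.644 from limma), and without A01, where the filter removed SMAD6, it was -0.67 (adjusted p = 0.912 from limma without a filter). SMAD6 was also the only call among 11 BMP targets, of which 9 were tested and 4 lay within the negative controls on all 5 arrays.

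TGF-beta targets numbered 23, of which 18 were tested, 3 rose and 2 fell. TAGLN, an actin-binding protein of contractile cells, rose from 4.27 and 3.43 on A01 and A02 to 6.18, 6.43 and 6.80 on B02, B03 and B04. The log2 difference was 2.62, or 6.15-fold (adjusted p = 4.93e-14 from limma). TPM1, a tropomyosin of actin filaments, rose from 6.02 and 5.89 to 7.21, 6.94 and 7.39, a difference of 1.22 (adjusted p = 0.0116 from limma). ITGB6, given above, was the third. ZEB1, a repressor of epithelial genes, fell from 4.37 and 4.86 to 2.92, 2.66 and 3.20, a difference of -1.69 (adjusted p = 1.90e-05 from limma), with B02 and B03 within the negative controls. MMP2, a matrix metalloproteinase, fell from 5.98 and 6.27 to 4.92, 4.86 and 5.10, a difference of -1.17 (adjusted p = 0.0203 from limma). Target genes of the same pathway thus passed in both directions, and the median of the list was 0.17.

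**Figure D4:**
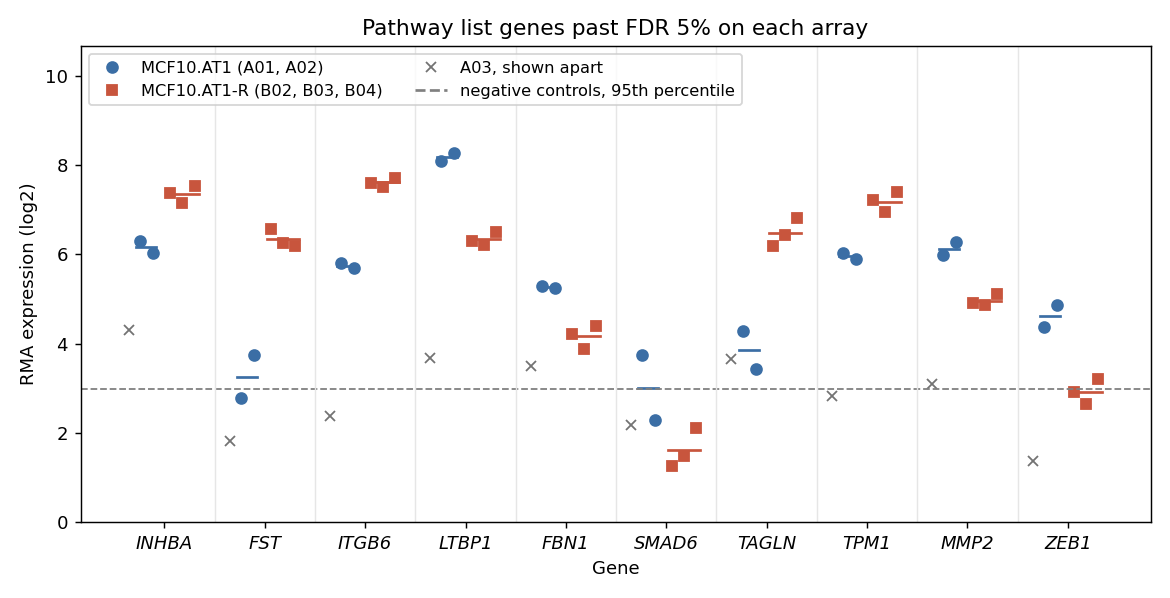
Log2 expression on each array of the 10 pathway genes past an FDR of 5% in limma. Blue dots are MCF10.AT1 (A01, A02), red squares MCF10.AT1-R (B02, B03, B04), crosses A03, short lines the means without A03, and the dashed line the 95th percentile of the negative controls at 2.99. For INHBA, FST, ITGB6, TAGLN and TPM1 every MCF10.AT1-R array lies above both MCF10.AT1 arrays, and for LTBP1, FBN1, SMAD6, ZEB1 and MMP2 every one lies below, SMAD6 by a gap of only 0.17.

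The calls depended unequally on single arrays. Without A01 or without A02, 5 of the pathway genes passed in each case, with the lone MCF10.AT1 array assumed to have the spread of the resistant ones. LTBP1, ITGB6, FST and TAGLN passed without A01 and without A02, and also without B02, without B03 and without B04. INHBA, FBN1, TPM1 and MMP2 did not pass without A01 or without A02. With A03 counted as MCF10.AT1 none of the 122 genes passed in limma over 6 arrays, nor any of the 10 signalling genes.

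Several of these genes are also made by stromal cells, but both lines are cultured epithelial lines. The markers below are therefore readings and not counts of cells. A reading above the negative controls does not by itself show that a cell type was present. In bulk RNA, fewer cells in a given state and less RNA per cell cannot be told apart. Of 9 fibroblast markers, FAP was higher in MCF10.AT1-R by 1.18 and DCN lower by -2.15 past an FDR of 5%. The sum of their log2 values was 40.7 to 41.1 in MCF10.AT1 and 39.4 to 41.3 in MCF10.AT1-R. The fibroblast markers COL1A1, COL1A2, COL3A1 and FAP lay above the negative controls on all 5 arrays, COL1A1 at 6.85 to 7.27, while LUM and PDGFRB lay within them on all 5. Of 3 endothelial markers PECAM1 was lower by -1.12, and the sum was 11.8 to 12.0 against 10.2 to 10.9. VWF and CDH5 differed by only -0.003 and -0.19 with arrays that overlapped between the lines. The endothelial sums thus differed mainly through PECAM1. Of 3 leukocyte markers none passed. CD68 and CD3E lay above the negative controls on all 5 arrays and PTPRC within them, and the sum was 8.27 to 9.62 against 8.69 to 10.1. Of 5 markers of cornifying keratinocytes, KRT1 and IVL were higher by 1.10 and 3.23 past an FDR of 5%. KRT10 differed by 0.58 without passing (adjusted p = 0.648 from limma). LOR and FLG, which the filter removed, were lower by -0.14 and -0.22, and FLG lay within the negative controls. The sums, 14.3 to 14.8 against 18.6 to 20.0, differed mainly through IVL and KRT1. The sums of the basal, general epithelial, endothelial and cornifying markers thus separated the lines without overlap, and their part in the differences of the pathway genes was not tested.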

How the data were processed

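Total RNA, extracted with Trizol, was profiled on Clariom D arrays, 3 per line. The authors deposited log2 expression values made by RMA (background correction, quantile normalization over 6 arrays, summarisation), with the packages affy and oligo per the methods. Package versions and the genome build are not given in the sources used here. The letter of an array name was taken as its line, since the methods remove A03 and the table then holds 2 arrays named A and 3 named B. The array names were matched to the lines and not to replicate numbers.

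The table holds 135750 transcript probe sets and 2995 controls, 612 of them negative. The methods remove low and invariant genes without giving limits. Here probe sets with a mean above the median (1.88) and an SD above the lowest 25% (0.18) over 5 arrays were tested, 51457 in all, by linear models with empirical Bayes variances (limma 3.58.1, R 4.3.3) and Benjamini-Hochberg adjustment (FDR 5%). Confidence intervals are for single genes. The scripts were tested on simulated data. The number of arrays limits the precision. The floor is the 95th percentile of the negative controls, averaged over the 5 arrays.

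The 10 genes, the 9 pathway lists and the marker lists were chosen with earlier results of these data known, so their counts are descriptions. Besides the 10 genes, the text names of each list every gene past FDR 5%, at most 5, or else the one with the widest difference above the floor. The lists hold 125 genes, of which 122 matched a symbol. Motifs were searched as exact letters on both strands, with overlapping matches counted once. The alternatives changed the arrays, weights, filters, variance model, normalization, floor or handling of probe sets. The low-expression filter with the variance trend was chosen after seeing the data.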

Additional observations from a re-analysis of the deposited data

How the results depend on the processing

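None of the 10 signalling genes passed an FDR of 5% in limma under 12 of the 15 alternatives, leaving out each array in turn included. With the variance trend 2 passed, TGFBI and ID1. With that trend and the low-expression filter alone the count was also 2 (TGFBI and ID1), and with the mean of all probe sets of a symbol it was 1 (ID1). Of the other pathway genes 10 passed. This count was 16 with the variance trend, 4 with the low-expression filter alone, 4 with no filter, 3 with the floor and 0 with A03 added back. Leaving out each array gave 5 to 8, the 5 coming without A01 and without A02. The cause of these moves was not tested.

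With A03 added back the log2 difference turned to 0.46 for TGFB1, 1.43 for TGFB2 and 0.35 for ID1, and none of these passed. ID2, within the negative controls, turned to -0.01 without A01 and to -0.14 without B02, the lowest of leaving out each array, with 0.13 without B03 the highest. TGFBI changed from 0.33 to 2.24 with A03 added back. With the floor ID2 differed by 0, and every other direction of the 10 genes was kept. Of 15 alternatives, LTBP1 and FST passed in 14, ITGB6 and TAGLN in 13, ZEB1 in 10, SMAD6 and TPM1 in 8, and INHBA, FBN1 and MMP2 in 7. No paired analysis was possible because the array names in the table carry no replicate number of the labels. Signal near the negative controls limits what can be said of ID2, TGFBR1, SMAD6 and most BMP ligands.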
